A study of Mus musculus with 47 samples.

Results

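Immediate early genes are genes that neurons transcribe within minutes of a stimulus, without making new protein first. Calcium entry and growth factor signals reach them through kinases that act on transcription factors already present at their promoters, such as CREB and SRF. Many of their products are transcription factors themselves, and in cortex and hippocampus Fos and Egr1 are widely used to mark recently active cells. The 10 genes described here were Fos, Fosb, Jun, Junb, Egr1, Egr4, Nr4a1, Ier2, Dusp1 and Per1. They were chosen by name, with earlier results of these data known, and all 10 were among the 22800 gene symbols of the read count table.

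Each library was made from the cytosol of 1 neuron, drawn into a patch pipette after a whole-cell recording with current steps. The neurons were NPY-positive GABAergic interneurons of male and female mice of the NPY-hrGFP strain (NPY-EGFP in the series' design text), in which a fluorescent protein marks cells that express neuropeptide Y, and no group received a treatment. The mice were 3 to 8 weeks old, and 8 mice gave all 47 columns of the table. The cells described were 10 of the superficial layers (L1 and L2) of the auditory cortex (AC), 13 of the stratum lacunosum-moleculare of CA3 and 3 labelled as CA1. These CA3 cells are only part of those the study reports on, and the rest were not analysed here as such. AC was cut in the coronal and the hippocampus in the horizontal plane, so region and plane of the slice cannot be told apart. No label ties a cell to a mouse. Each region was therefore taken as 1 sample, no test between regions was made, and every SD describes the spread over cells only. How long a slice had been kept before a cell was sampled is not given in the sources used here.

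The genes lie on 9 chromosomes of GRCm38, since Junb and Ier2 share chromosome 8. Fos (chr12:85473890-85477274) and Fosb (chr7:19302696-19310118) encode Fos proteins, which pair with Jun proteins to form the transcription factor AP-1. Jun (chr4:95049036-95052222) and Junb (chr8:84976909-84978748) encode the Jun partners. Egr1 (chr18:34861207-34864956) and Egr4 (chr6:85511121-85513589) encode zinc finger transcription factors, and Nr4a1 (chr15:101253902-101274795) encodes an orphan nuclear receptor. Ier2 (chr8:84661331-84662852) encodes a small nuclear protein. Dusp1 (chr17:26505591-26508472) encodes a phosphatase that switches off MAP kinases. Per1 (chr11:69095108-69109965) encodes a repressor of the circadian clock that CREB also induces.

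The depth was 1715012 to 6265431 reads on genes per cell in AC, 2229519 to 7949918 in CA3 and 601781 to 3202430 in CA1. Gad1, Gad2 and Npy, which mark GABAergic NPY-positive neurons, had reads in all 26 cells, with 1668 to 59922 reads on Gad1 in AC and 5486 to 99346 in CA3. N1 and N6 of CA1 were the shallowest cells. N4 of AC and the column N4X had a Pearson correlation of 0.997 over log2(CPM + 1) of 15187 genes, against at most 0.665 in any other pair of columns, and were counted as 1 cell. Markers of other cell types were present in part. Astrocyte markers had reads in AC (Aldoc 7232, Slc1a3 5143), as had microglia markers (Csf1r 14256, Cx3cr1 6137, C1qb 5584), and the oligodendrocyte marker Mbp had 7854 reads in CA3. Aqp4, Mog, Sox10, Tmem119, Cldn5, Flt1, Tek, Kcnj8 and Pdgfrb, from the same lists and the endothelial and mural one, had no read in any of the 26 cells.

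Promoters are shown for 4 of the genes whose levels went together in both regions. The shared letters in them are a known target of CREB, and Fosb, Dusp1 and Per1 hold them too. Whether these letters have a part in the levels was not tested. The RefSeq promoter table for GRCm38.p6 matched 8 of the 10 genes by symbol, without Egr1 and Ier2. Each sequence holds the 250 bases before the transcription start, 5′ to 3′ on the strand of the gene. These are Fos at chr12:85473640-85473889 on the plus strand, Junb at chr8:84978749-84978998 and Egr4 at chr6:85513590-85513839 on the minus strand, and Nr4a1 at chr15:101266596-101266845 on the plus strand. The start that the table gives for Nr4a1 lies inside the span of the gene. Capitals mark TGACG, the half-site of the cAMP response element, or CGTCA, the same letters on the other strand.
Fos: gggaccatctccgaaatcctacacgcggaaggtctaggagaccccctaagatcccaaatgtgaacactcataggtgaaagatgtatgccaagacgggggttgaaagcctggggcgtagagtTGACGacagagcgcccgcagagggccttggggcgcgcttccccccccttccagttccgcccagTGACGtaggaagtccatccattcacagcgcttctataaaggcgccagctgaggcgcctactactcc
Junb: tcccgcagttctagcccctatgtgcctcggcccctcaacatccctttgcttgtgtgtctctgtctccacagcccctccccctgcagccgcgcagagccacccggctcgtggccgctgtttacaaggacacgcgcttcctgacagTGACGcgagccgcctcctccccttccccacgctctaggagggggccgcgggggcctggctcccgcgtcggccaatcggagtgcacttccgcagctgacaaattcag
Egr4: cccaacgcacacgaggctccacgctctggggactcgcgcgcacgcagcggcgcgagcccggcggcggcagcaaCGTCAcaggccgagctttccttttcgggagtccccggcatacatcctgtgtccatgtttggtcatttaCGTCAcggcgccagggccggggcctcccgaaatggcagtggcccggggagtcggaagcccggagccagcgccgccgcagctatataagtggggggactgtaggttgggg
Nr4a1: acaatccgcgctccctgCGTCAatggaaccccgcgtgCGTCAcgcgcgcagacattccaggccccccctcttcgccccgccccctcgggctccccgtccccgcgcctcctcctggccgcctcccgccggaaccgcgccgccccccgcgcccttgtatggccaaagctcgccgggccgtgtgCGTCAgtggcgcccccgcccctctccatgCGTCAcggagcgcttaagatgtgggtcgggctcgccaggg

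TGACG was found on either strand within these 250 bases in 7 of the 8 matched genes, all but Jun, and in 17.77% of all 32851 promoters of that length in the table. Positions count bases from the start to the 5′ end of a match. Nr4a1 held 4 matches, at -233, -213, -69 and -40. Fos held 2, at -129 and -66, Egr4 held 2, at -177 and -109, and Junb held 1, at -106. Fosb held 1 match, at -60. Dusp1 held 3 matches, of which a pair overlap in the full palindrome TGACGTCA, at -143. This palindrome was in 1.546% of all promoters and in no other of the matched genes. Per1 has 2 starts in the table with 1 match each. TATAAA, the TATA box motif, was found on either strand in Fos at -33 and in 12.37% of all promoters. The CArG box, which SRF binds, was in none of the 8 windows and in 1.467% of all promoters. A match describes letters and not binding, and no match says only that these letters were not in this window.

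**Figure D1:**
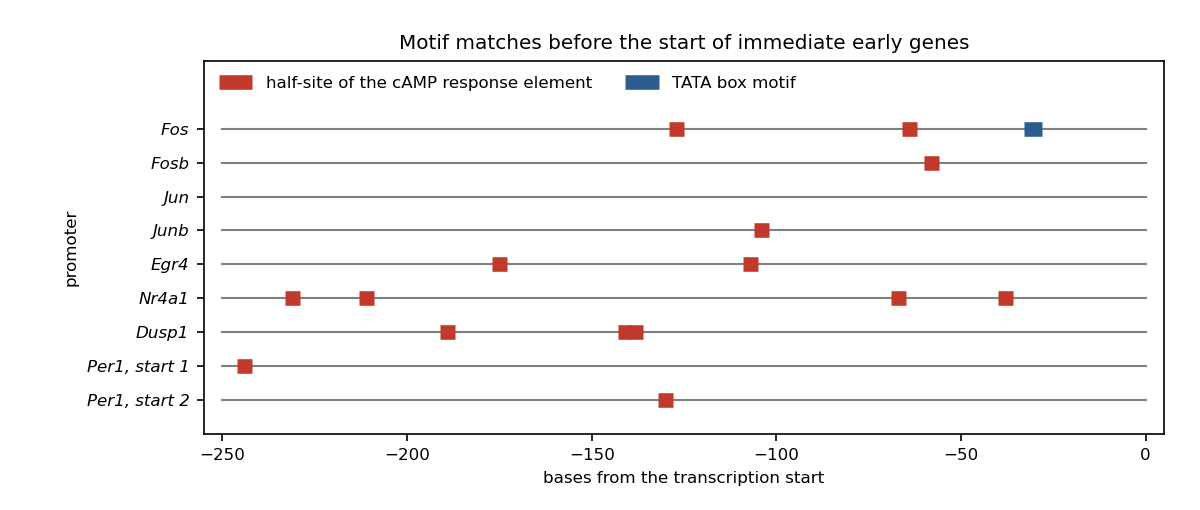
Positions of motif matches in the 250 bases before the transcription start of 8 immediate early genes, with Per1 at both of its starts; the x axis gives bases from the start and each bar is a match on either strand. The half-site of the cAMP response element lies in every promoter shown except that of Jun, and Nr4a1 holds 4 matches.

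Fos, Egr1 and Junb were read in every AC cell. A level is given below as normalised reads, the reads of a gene in a cell divided by the size factor of that cell. Fos ranged from 2843 to 18020 normalised reads over the 10 AC cells, with a median of 4604. The 13 CA3 cells ran from 39.3 to 6950 around a median of 1798, and the CA1 cells N1, N2X and N6 had 1750, 2921 and 1624. Fos was thus read in all 26 cells. The 3 highest AC cells, N42, N3X and N43, lay above the highest CA3 cell, and 10 of 13 CA3 cells lay below the lowest AC cell, so that the regions overlapped.

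Egr1 ranged from 1881 to 14679 normalised reads in AC, with a median of 5202. The CA3 cells ran from 0 to 3078 around a median of 1126, and 11 of 13 cells had a read (84.6%, exact Clopper-Pearson 95% interval 54.6 to 98.1%). Such intervals over cells cover counting error only, since cells of 1 region may share mice. The CA3 cells without a read were N27 and N40, whose depth of 2500481 and 4303558 reads allows up to 1.20 and 0.697 CPM. N2X of CA1 stood at 13373 normalised reads, while N1 had 834 and N6 had 2.54. In AC 7 of 10 cells lay above the highest CA3 cell, and 11 of 13 CA3 cells lay below the lowest AC cell.

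Junb, the more abundant of both Jun genes, ranged from 963 to 9770 normalised reads in AC, with a median of 2527. In CA3 the range was 0 to 1896 with a median of 674, and N30 had no read. In N1, N2X and N6 of CA1 the values were 1033, 3140 and 527. There were 6 AC cells above the highest CA3 cell.

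Jun was less even. In AC it ranged from 0 to 11248 normalised reads with a median of 446, and N3X alone held 73.7% of the 20462 Jun reads of the region. Reads on it came from 8 of 10 AC cells (80.0%, interval 44.4 to 97.5%). CA3 had 7 of 13 cells with reads (53.8%, interval 25.1 to 80.8%), and its highest value was 622. In CA1 it was read in N6 alone, with 2 reads.

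Egr4 and Nr4a1 were read in the same 8 AC cells and in neither of N44 and N46. Among the 8, N4 had 1 Egr4 read and 8 Nr4a1 reads, and the column N4X of that cell had 0 and 19. Egr4 ranged from 0 to 10823 normalised reads in AC with a median of 1524, and N42 was highest. In CA3 it was read in 6 of 13 cells and reached 781 in N28. Nr4a1 ranged from 0 to 1869 in AC with a median of 695, and from 0 to 705 in CA3 with a median of 14.5. Reads on both genes were found in 5 of 13 CA3 cells and on neither in 4, and of the CA1 cells N2X had both and the others had none.

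Ier2 was read in 6 of 10 AC cells (60.0%, interval 26.2 to 87.8%), and these 6 cells, N3X, N43, N8, N41, N5 and N44, had 805 to 5109 normalised reads. In CA3 it was read in 6 of 13 cells and reached 561, below every AC cell with a read. All 3 CA1 cells had Ier2 reads, at 153, 775 and 145 normalised reads in N1, N2X and N6. Its reads were thus either plentiful or at 0 within AC.

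Fosb, Dusp1 and Per1 overlapped widely between the regions. Fosb ranged from 0 to 635 normalised reads in AC with a median of 224, and from 0 to 889 in CA3 with a median of 41.8, so that no AC cell lay above the highest CA3 cell. Dusp1 had no read in N46 of AC and 1268 to 7804 normalised reads in the other AC cells, while all 13 CA3 cells had reads, from 223 to 4882 with a median of 1494. The depth of N46, 3247495 reads, allows up to 0.924 CPM of Dusp1. Per1 ranged from 0 to 682 normalised reads in AC and from 0 to 501 in CA3, with medians of 163 and 98.9.

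Thinning changed detection little. After each AC and CA3 cell was thinned to 1715012 reads, the lowest total among them, the number of cells with a read stayed as it was for 9 genes in both regions, and Per1 went from 12 to 11 CA3 cells. Reads on all 10 genes were found in 3 AC cells, N3X, N8 and N43, and in no CA3 or CA1 cell.

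**Figure D2:**
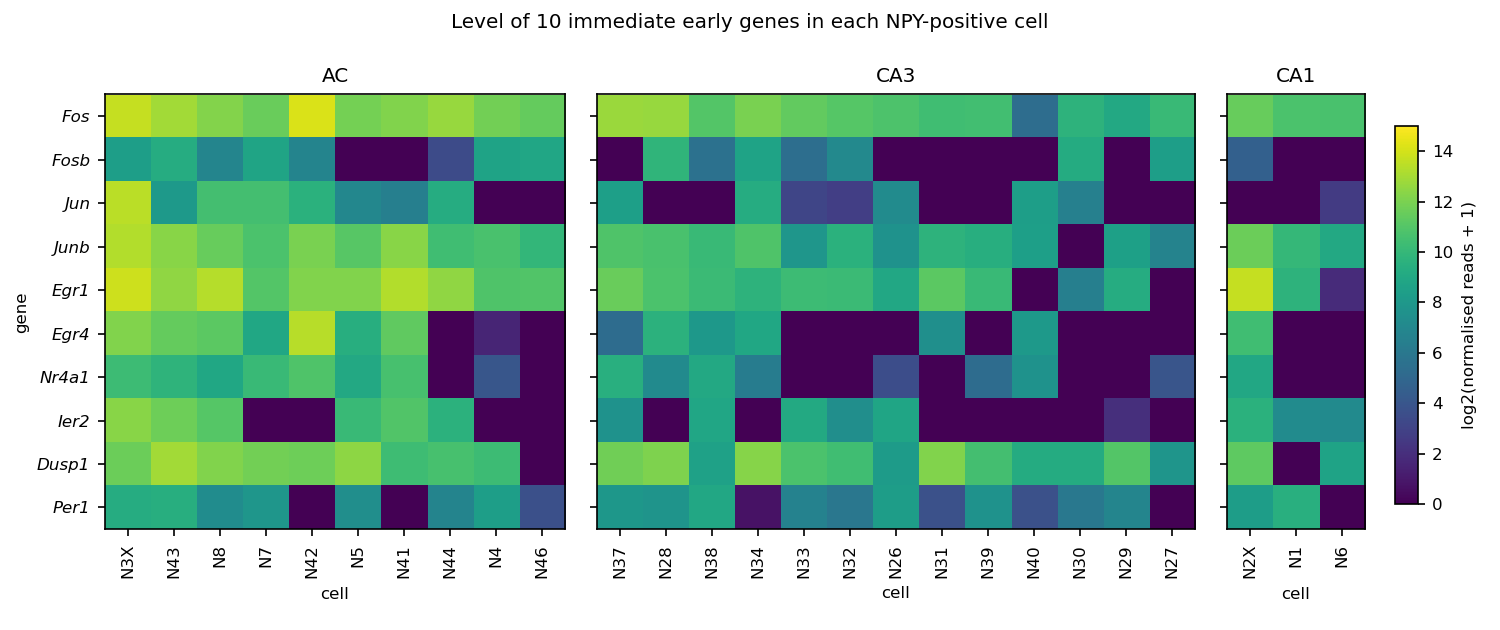
Level of the 10 genes in each of 26 cells, as log2(normalised reads + 1) in colour, with cells of AC, CA3 and CA1 in separate panels ordered from left to right by their mean over the 10 genes. Fos is read in every cell, the AC cells N3X, N8 and N43 show all 10 genes, and N46 at the right of the AC panel shows 5.

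Compared per kilobase of transcript, the order of the genes began alike in both regions. In AC the median RPKM was 607 for Fos, 447 for Dusp1, 423 for Junb and 348 for Egr1. In CA3 the same 4 genes led in the same order, with 251, 240, 119 and 80.1 RPKM. Fos and Dusp1 did not separate, since Fos exceeded Dusp1 in 6 of 10 AC cells and 8 of 13 CA3 cells, while Dusp1 exceeded Junb in 5 of 10 AC cells. Other steps were wider: Dusp1 exceeded Junb in 12 of 13 CA3 cells, and Junb exceeded Egr1 in 8 of 10 AC cells. In AC the next were Ier2 (197), Egr4 (182) and Nr4a1 (85.8), and each exceeded its next neighbour in 5 or 6 of 10 cells. Jun (39.1), Fosb (18.9) and Per1 (10.7) came last in AC. In CA3 Per1 (7.17) and Fosb (3.75) came after the leading 4, and the median of Egr4 and Ier2 was 0.

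Within single cells 1 member of each family was nearly always the higher. Per length, Fos exceeded Fosb in all 26 cells, and in cells with reads on both the median Fos to Fosb ratio was 38.9 in AC (8 cells, range 10.9 to 1208) and 17.8 in CA3 (7 cells, range 2.51 to 118). Junb exceeded Jun in every AC cell and in 12 of 13 CA3 cells, with a median ratio of 5.996 in AC and 7.06 in CA3 where both were read. The exception was N30 of CA3, which had Jun but no Junb reads. Egr1 exceeded Egr4 in 9 of the AC and 10 of the CA3 cells, and in N42 of AC the ratio of Egr1 to Egr4 was 0.204.

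The study set AC beside CA3 to find genes that differ between NPY-positive cells of neocortex and allocortex. On the scale of log2(normalised reads + 1), 8 of the 10 genes had a mean at least 1 higher in AC than in CA3 and 0 had a mean at least 1 lower. Of the 5964 genes detected in 10 or more of the 23 cells, 15.4% were at least 1 higher in AC and 48.1% at least 1 lower. The median difference was 3.06 over the 10 genes and -0.91 over all genes tested. AC cells had 3163 to 6288 genes detected and CA3 cells 3679 to 8149. The part of this in the shift of all genes was not tested. A heat map of the study shows Fos and Egr1 among genes higher in AC. The cells used here had earlier been picked out of the table by comparing it with the colours of such heat maps, so for Fos and Egr1 the difference is no independent evidence of its direction.

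The largest differences in mean log2 level belonged to Egr4, at 4.29, Jun, at 3.96, and Egr1, at 3.88. This order changed with the setting. Egr1 led with a pseudocount of 10 (3.36) and with all labelled cells (3.04), and Ier2 led without N42 (3.94). Egr4 had a mean level of 7.94 ± 5.30 (SD, n = 10 cells) in AC and 3.65 ± 4.21 (SD, n = 13 cells) in CA3. Jun had 7.49 ± 4.42 and 3.52 ± 3.87, and Egr1 had 12.26 ± 1.06 and 8.38 ± 3.92. For all of these the difference was smaller than the SD over cells of at least 1 region. Differences were larger than both SDs for Fos and Junb only. Fos had 12.45 ± 0.90 in AC against 10.53 ± 1.90, which differ by 1.92, and Junb had 11.42 ± 1.05 against 8.51 ± 2.87, which differ by 2.91.

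Nr4a1 differed by 3.34, Ier2 by 3.20 and Fosb by 1.94, each with SDs over cells above the difference. With a pseudocount of 10 the difference of Fosb was 1.14. Per1 differed by 0.31, from 6.01 ± 3.55 in AC to 5.70 ± 2.86 in CA3. Dusp1 differed by 0.08, and its sign turned with TMM factors (-0.02), with DESeq2 size factors (-0.05) and with a pseudocount of 0.1 (-0.25), and when any 1 of N3X, N5, N7, N8, N42, N43, N26, N27, N30 or N38 was left out, down to -0.27 without N43. Without N46, the AC cell that lacked Dusp1 reads, the difference was 1.20 and the count of genes at least 1 higher in AC was 9. The sign of Per1 turned with a pseudocount of 0.1 (-0.01) and when any 1 of N3X (-0.03), N34 (-0.10), N43 (-0.11) or N27 (-0.19) was left out. Its difference was 0.991 without N41, 0.998 without N42 and 0.98 with all labelled cells. Relative to the median of all genes tested, Dusp1 was 0.99 and Per1 1.21 higher in AC, and the other 8 genes were 2.83 to 5.20 higher. With all labelled cells of both regions the difference of Fos was 0.86 and the count was 7. The differences were then 2.02 for Jun, 1.58 for Junb, 1.98 for Nr4a1, 2.06 for Ier2 and 2.84 for Egr4, each over 1.5 times smaller. The CA3 columns this added, other than N36, had no Gad1 or Npy read, nor had N10, N50 and N52 of AC.

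No gene separated the regions. The cells of AC and CA3 overlapped for all 10 genes, while in the whole table all AC cells lay above all CA3 cells for 2 genes, or 0.0335% of those tested. Of the 130 pairs made of 1 AC and 1 CA3 cell, AC was higher in 124 for Egr1, 118 for Junb, 112 for Fos, 96 for Egr4, 94 for Nr4a1 and 91 for Jun. It was higher in 82 for Dusp1, 78 for Ier2, 75 for Fosb and 73 for Per1, so that by this count Ier2 and Fosb lay below Dusp1. Tied pairs did not count here. With each tied pair split evenly between the regions, AC had 70.8% for Ier2, 63.1% for Dusp1 and 62.3% for Fosb. Fosb but not Ier2 then lay below Dusp1.

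**Figure D3:**
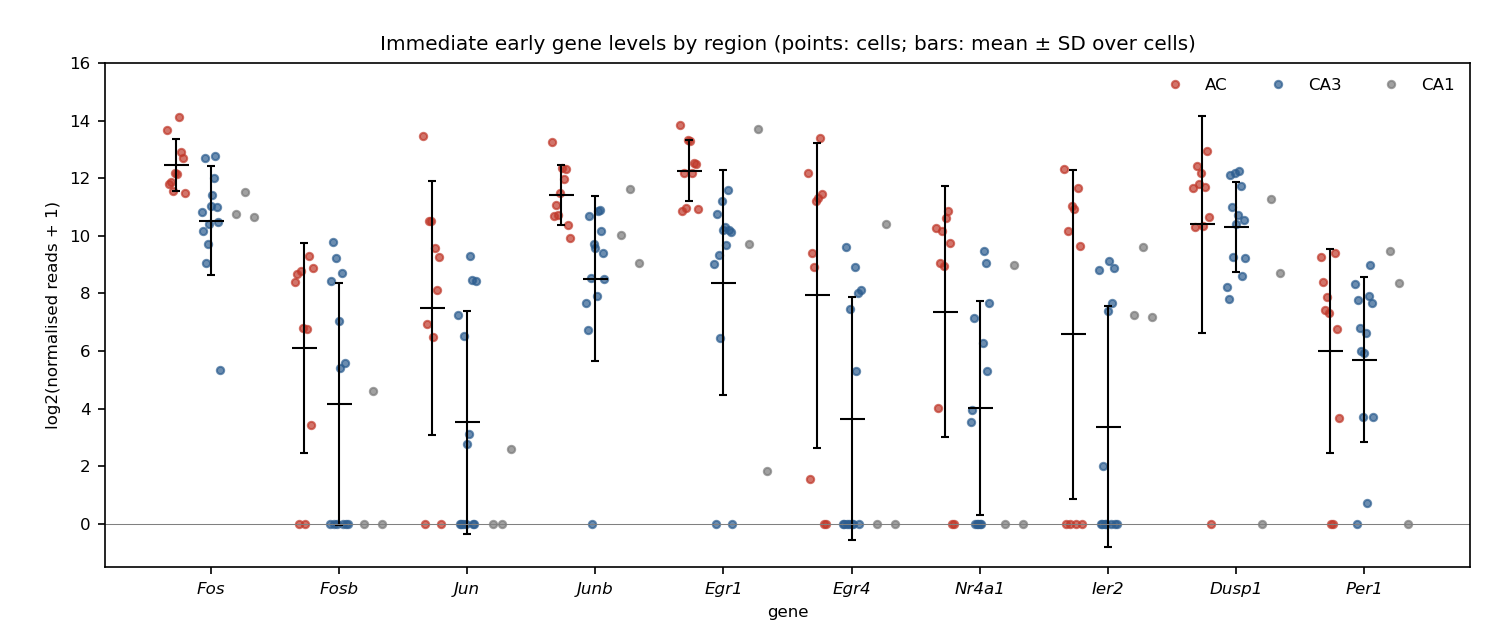
Level of each gene as log2(normalised reads + 1) on the y axis, with 1 point per cell for 10 AC, 13 CA3 and 3 CA1 cells and black bars for the mean ± SD over the cells of AC and CA3. Fos, Junb and Egr1 cluster in AC with means of 12.45, 11.42 and 12.26, points at 0 are cells without a read, and both regions overlap for every gene.

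Summed over the cells of a region, reads on Egr1 made 2050 CPM in AC (2034 to 2065, the exact Poisson 95% interval) and 348 CPM in CA3 (342 to 353). Fos made 1995 CPM in AC (1980 to 2010) and 746 CPM in CA3 (738 to 754). Jun made 601 CPM in AC (593 to 609) and 41.2 CPM in CA3 (39.5 to 43.1), with most of its AC reads from N3X. Dusp1 made 951 CPM in AC (941 to 962) and 642 CPM in CA3 (635 to 649), so that on this scale it was higher in AC too. These intervals cover counting error only.

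Within a region, cells high for 1 of the genes tended to be high for others. Over the 10 AC cells the median Spearman's rho of the 45 pairs was 0.413 (range -0.304 to 0.919), and 16 of the 45 pairs had a rho of at least 0.5. Among all pairs of the 4590 genes detected in 5 or more AC cells, 8.55% reached 0.5 and the median was 0.013. Over the 13 CA3 cells the median of the 45 pairs was 0.235 (range -0.292 to 0.724), and 9 pairs reached 0.5. Among all pairs of the 5465 genes detected in 7 or more CA3 cells, 5.32% reached 0.5 and the median was 0.014. Egr4 and Ier2 were below that number of cells in CA3, and the 28 pairs of the other 8 genes had a median of 0.238. These correlations are descriptions over cells that share library preparation and may share mice. Without N46 the AC median was 0.25. The CA3 median was 0.145 without N29 and 0.146 and 0.154 without N27 and N28, and 0.097 with Pearson's r on the log2 levels.

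**Figure D4:**
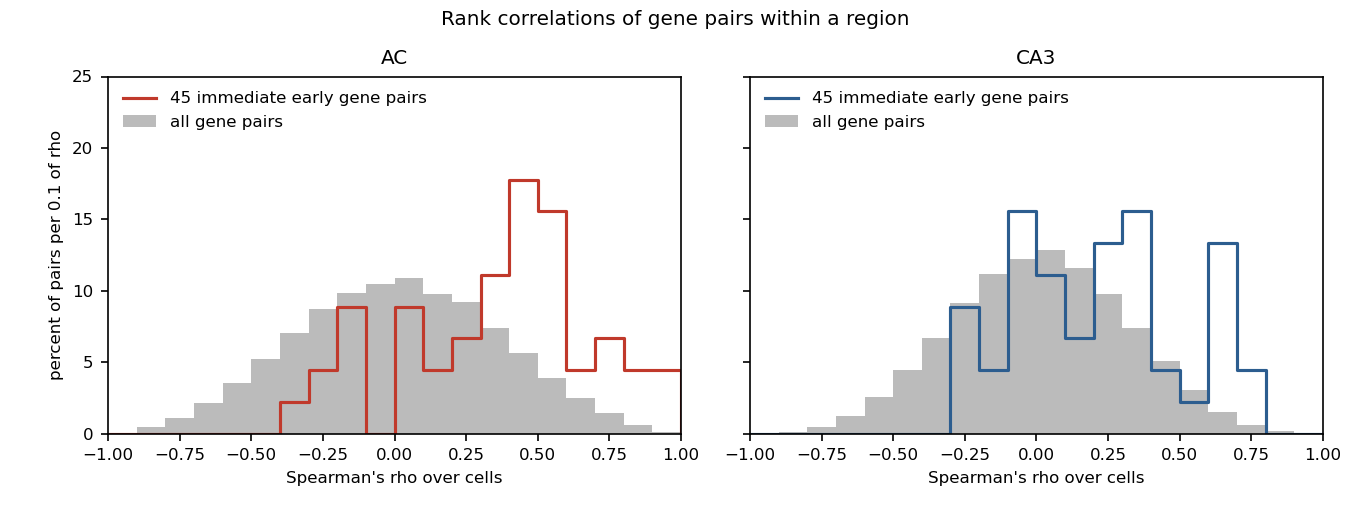
Distribution of Spearman's rho over cells (x axis, in steps of 0.1) as the percent of pairs (y axis), for the 45 pairs of immediate early genes (line) and for all pairs of genes with reads in enough cells (grey bars), in AC and CA3. The member pairs have medians of 0.413 in AC and 0.235 in CA3, against 0.013 and 0.014 for all pairs.

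There were 6 pairs with a rho of at least 0.5 in both regions, and they joined Fos, Junb, Egr1, Egr4 and Nr4a1, with Junb in 4 of them. Of all pairs of the 3813 genes read in enough cells of both regions, 0.515% did so. These include 8 of the 10 genes, without Egr4 and Ier2, and 4 of their 28 pairs. Junb and Egr4 had a rho of 0.912 in AC and 0.681 in CA3. Junb and Egr1 had 0.745 and 0.713, and Fos and Junb had 0.661 and 0.681. Fos and Egr1 had 0.612 in AC and 0.724 in CA3, Egr4 and Nr4a1 had 0.866 and 0.645, and Junb and Nr4a1 had 0.815 and 0.548. Without the 2 cells farthest from the median of the first gene, Junb and Egr4 still had 0.905 in AC and 0.601 in CA3, and Fos and Egr1 had 0.738 and 0.555. Among these 5 genes, grouped after their values were seen, the median rho of the 10 pairs was 0.703 in AC and 0.596 in CA3, and none was below 0.

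Other pairs reached 0.5 in 1 region and not in the other, and the difference between regions was not tested. Egr1 and Ier2 had the highest rho in AC, at 0.919, against 0.311 in CA3. Junb and Ier2 had 0.725 in AC and 0.036 in CA3. Junb and Dusp1 had 0.681 in CA3 and 0.394 in AC, and Egr1 and Dusp1 had 0.652 and 0.382. Ier2 and Per1 had 0.603 in CA3 and 0.411 in AC.

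Fosb had low rho values with most of the other genes. Its 9 pairs had a median rho of -0.116 in AC and -0.024 in CA3, and with Fos it had -0.219 in AC and 0.289 in CA3. The only Fosb pair at 0.5 or above was with Per1 in AC, at 0.546, against -0.234 in CA3. Set against the mean level of the other 9 genes, Dusp1 (0.733), Junb (0.721) and Egr1 (0.685) had the highest rho in AC, and Fos (0.83), Junb (0.643) and Egr1 (0.58) in CA3. Fosb had the lowest in both, at -0.109 and 0.029. This order rested in part on the 2 cells farthest from the median of that mean. Without them Dusp1 (0.833) and Egr4 (0.5) led in AC, Fos (0.791), Nr4a1 (0.744) and Ier2 (0.715) led in CA3, and Fosb, at 0.347 and 0.362, was lowest in neither region. In all, 28 of the 45 pairs had a positive rho in both regions and 3 a negative one in both. Without Egr4 and Ier2, read in too few CA3 cells, 17 of 28 pairs were positive in both and 2 negative. Of all pairs of the 3813 genes read in enough cells of both regions, 26.5% were positive in both and 23.7% negative.

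**Figure D5:**
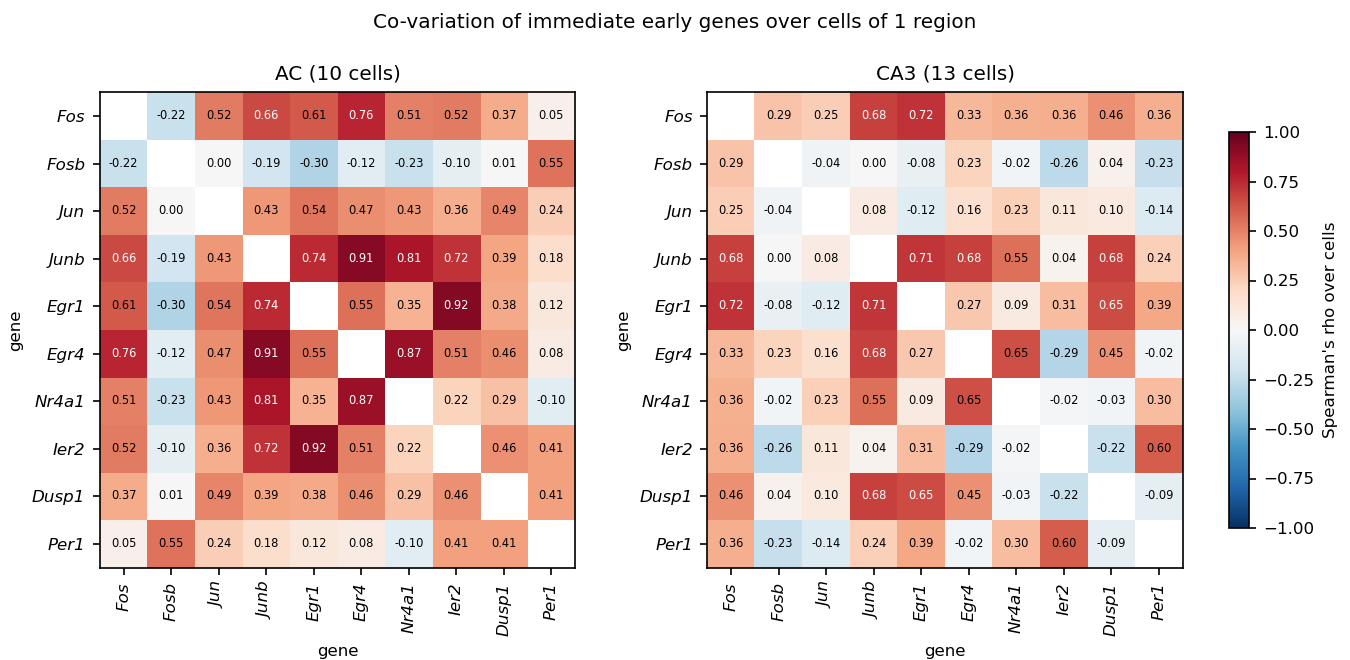
Spearman's rho over cells for each pair of the 10 genes, in colour and as a number, over 10 AC cells (left) and 13 CA3 cells (right). Fos, Junb, Egr1, Egr4 and Nr4a1 are positive with each other in both panels, and the Fosb row is near or below 0 for most genes.

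An index per cell was taken as the mean of log2(normalised reads + 1) over the 10 genes. It was 8.80 ± 2.17 (SD, n = 10 cells) in AC and 6.22 ± 1.55 (SD, n = 13 cells) in CA3. In AC it was highest in N3X (11.83), N43 (11.04) and N8 (10.50) and lowest in N46 (4.49). In CA3 it was highest in N37 (8.58), N28 (8.06) and N38 (8.05) and lowest in N27 (3.71). All 13 CA3 cells lay below the AC median of 9.05, and 7 of 10 AC cells lay above the highest CA3 cell. Fos and Egr1 are part of the index, and the cells were picked with heat maps that show both genes. The index is thus no independent evidence of a direction between the regions. The CA1 cells were unlike each other, with 9.01 in N2X, 4.72 in N1 and 4.002 in N6.

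The reads on the 10 genes made up 0.181 to 2.11% of all reads of a cell in AC, 0.0454 to 0.512% in CA3 and 0.0867 to 0.725% in CA1. N3X, at the top of the range, had 21098 CPM on the 10 genes, of which 4299 CPM were Fos. N46, at the bottom of AC, had 1808 CPM on 5 genes.

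Depth and the markers of other cell types were set beside the index. With the total reads of a cell its Spearman's rho was 0.333 in AC and 0.17 in CA3, and with the number of genes detected it was 0.248 and 0.181. With the mean level of 6 astrocyte markers rho was -0.79 in AC (Pearson's r -0.815, and -0.459 without the 2 cells farthest from the median) and 0.074 in CA3. Over the AC cells these markers summed to 0 to 2820 CPM, highest in N4, and 8 of 10 cells had a read on any of them. In CA3 they summed to 0 to 372 CPM, with reads in 3 of 13 cells. With 7 microglia markers rho was -0.638 in AC (Pearson's r -0.481, and -0.304 without the 2 farthest cells) and 0.137 in CA3, with sums of 0 to 4570 CPM in AC, highest in N42, and 0 to 1947 CPM in CA3. N46, with the lowest AC index, had 1119 CPM of astrocyte and 2746 CPM of microglia markers, whereas N42 had 996 and 4570 CPM and an index of 9.06. Oligodendrocyte markers reached 367 CPM in AC and 1043 CPM in CA3, and pyramidal cell markers 190 and 383 CPM. With the mean level of the pyramidal cell markers rho was -0.37 in AC (Pearson's r -0.723, and -0.52 without the 2 farthest cells) and 0.022 in CA3. Endothelial and mural cell markers, of which 5 of 7 were at 0, reached 1.17 and 33.7 CPM. The part of these cells' RNA in the levels of the 10 genes was not tested. With Gad1 rho was 0.006 in AC and -0.06 in CA3, and with Npy 0.067 and -0.352. Snhg11, an RNA kept largely in the nucleus, was 0.63 higher in AC and had a rho of 0.2 and 0.154 with the index.

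Other activity-induced transcription factors were sparsely read. Of 18 such genes 4 were detected often enough to be tested, 2 of them were at least 1 higher in AC and 0 lower, against 15.4% and 48.1% of all genes. Jund, the remaining Jun gene, had a mean log2 level of 9.45 ± 0.78 in AC against 7.41 ± 1.15 in CA3, and the gap of 2.04 exceeded both SDs. Klf6, a zinc finger factor, was 2.05 higher in AC, and Cebpb, a leucine zipper factor, 0.62 higher, both within the SDs over cells.

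Activity-induced effectors were mostly higher in AC. Of 23 genes 10 were tested, with 8 at least 1 higher in AC, 0 at least 1 lower and a median difference of 2.45, against 15.4%, 48.1% and -0.91 over all genes. Btg2, an antiproliferative gene, was 4.23 higher, from 6.31 ± 5.47 in AC and 2.08 ± 3.87 in CA3. Gadd45g, a stress-induced gene of the Gadd45 family, was 4.21 higher and Trib1, a pseudokinase gene, 3.71 higher. Btg2 and Trib1 were each detected in exactly 10 cells, 6 and 7 of them in AC, so they were tested only through the region where they were high. Without them 6 of the other 8 genes were at least 1 higher in AC. The mean level of these 23 genes went with the index, with a rho of 0.721 in AC and 0.549 in CA3. Pearson's r was 0.688 and 0.583, and 0.415 and 0.173 without the 2 cells farthest from the median.

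The kinases and transcription factors upstream of the 10 genes showed no such shift. Of 26 genes 14 were tested, with 2 at least 1 higher in AC, 7 at least 1 lower and a median difference of -0.99, against 15.4%, 48.1% and -0.91 over all genes. Crtc1, a coactivator of CREB, was 3.49 higher in AC. The difference was -2.29 for Mapk3, which encodes ERK1. Their mean level had a rho of 0.055 with the index in AC and 0.115 in CA3.

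Clock genes other than Per1 and heat shock genes lay near the background. Of 12 clock genes 7 were tested, with 1 at least 1 higher in AC and 3 at least 1 lower, against 15.4% and 48.1% of all genes. The difference was -3.59 for Cry1, a clock repressor, 3.29 for Nr1d2, a nuclear receptor of the clock, and -2.20 for Dbp, a clock output factor. Cry1 was detected in exactly 10 cells, 8 of them in CA3, so it was tested only through the region where it was high. Heat shock genes, which respond to protein stress, had 0 of 9 tested at least 1 higher and 4 at least 1 lower against the same shares, and the difference was -3.34 for Hspe1, -2.10 for Dnajb1 and -1.75 for Hspd1. Their mean level had a rho of 0.564 with the index in AC and 0.17 in CA3.

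Among 3805 genes detected in 5 or more AC and 7 or more CA3 cells, the genes most like the index in both regions were Ints10, Gorasp1, Exosc7, Tapt1, Synj1, Tmsb15l, Pbrm1, Clptm1, Dbp and Maz. Likeness was the mean of Spearman's rho over 10 AC and 13 CA3 cells, and it ran from 0.695 for Ints10 to 0.657 for Maz, with a median of 0.02 over all 3805 genes. Synj1 had a rho of 0.456 in AC and 0.9 in CA3, and Ints10 had 0.873 and 0.517 but was read in 5 AC and 7 CA3 cells only. Tmsb15l has near-identical relatives, so its reads are uncertain. Dbp alone of the 10 was on a list above. Of the activity-induced genes Ppp1r15a came nearest, at rank 45, with 0.828 in AC and 0.223 in CA3.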

How the data were processed

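A single table of raw counts for 47 cells was deposited by the authors, made with Nextera XT libraries, which do not mark strand. Reads were trimmed with Trimmomatic and Flexbar and aligned with STAR to GRCm38. The paper names HTSeq for counting and the submitters' processing notes name featureCounts. Symbols came from Ensembl version 86, and counts of identifiers sharing a symbol were averaged.

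The 10 genes, the cells and the lists were chosen with earlier results of these data known. Cells were scaled by size factors from scran 1.30.0 (computeSumFactors, pools of 10 and 20, 26 cells) in R 4.3.3. Levels are log2(normalised count + 1). Genes detected in 10 or more of the 23 AC and CA3 cells counted as tested, and called means a difference in means of at least 1. No p-value was computed. Correlations are Spearman's over cells. RPKM used GENCODE transcript lengths. Of each list the 3 genes with the largest difference were named, and of all genes the 10 most like the index. The values of some listed genes are not reported here. Alternatives were library size, edgeR 4.0.16 TMM and DESeq2 1.42.0 factors, pseudocounts of 10 and 0.1, thinning, 10 reads as detection limit, centring, Pearson's r, all labelled cells and each cell left out. N4X in place of N4 was added after seeing the data. The steps were tested on simulated data (Python 3.11.15, numpy 2.4.6, pandas 2.3.3, scipy 1.17.1, matplotlib 3.10.9).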

Additional observations from a re-analysis of the deposited data

Results flagged for a closer look

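Dusp1 in the AC cell N46 stood far from the other 9 AC cells. Its log2 level there was 0, and the gap to the next cell took a share of 0.797 of the range of the group, above the 95% critical value of Dixon's test for 10 cells. It was 1 of 11 items examined in AC, and chance alone marks about 1 in 20.

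Reads on the 10 genes were also found in columns that no comparison used. The dentate gyrus column N11 held 31 such reads, all on Egr4, of 89297 reads in all. The dentate gyrus column N12 held 195, on Fos, Jun, Dusp1 and Per1. The NPY-negative CA3 column N16 held 2928 of 291745 reads, or 10036 CPM, led by Fos with 1183 and Dusp1 with 726 reads. There is 1 such NPY-negative column and it had no Gad1 or Npy read.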

How the results depend on the processing

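With the 6 genes that had at least 10 reads in enough cells of both regions (Fos, Fosb, Junb, Egr1, Dusp1 and Per1), 4 were at least 1 higher in AC, against 8 of 10, since fewer genes were counted. No other alternative moved that count by over 1.5 times, and no alternative gave a gene at least 1 lower. With each cell left out in turn the count was 8 to 9 and the median difference 2.62 to 3.47. The median rho was 0.25 to 0.477 in AC and 0.145 to 0.235 in CA3. Over the remaining alternatives the median difference was 1.84 (all labelled cells, without N9 and N49, whose size factors were at or below 0) to 3.97, and the median rho 0.310 to 0.455 in AC and 0.097 to 0.363 in CA3. No paired analysis was possible because no label ties cells of different regions to a mouse. Apart from Dixon's test over the AC cells, no result comes from a test. Spreads over cells cannot stand for spreads over mice, and a gene at 0 in a cell is limited by 3 reads of its depth.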

Other observations

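Labelled cells outside the 26 held the genes in other proportions. In the AC column N47 Egr1 took 56895 of the 71553 reads on the 10 genes, with 997 on Fos and none on Junb. In the AC column N48 Egr1 took 34838 of 46209 and Per1 8559, with none on Fos. The AC column N45, in contrast, had reads on 8 of the 10 genes with 14541 on Egr1 and 11530 on Fos. N52 of AC, with 40934 reads in all, had none. In the CA3 column N36 all 3566 reads on the genes fell on Egr1, while N18 and N22 had reads on 8 genes each with no Gad1 or Npy read.

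N4 and N4X, which were counted as 1 cell, had 1100 and 1126 CPM of Fos, 574 and 569 CPM of Egr1 and no read on Jun or Ier2 in either.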
